A study of Arabidopsis thaliana with 6 samples.

Results

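The regions described here are places inside protein-coding genes where the first of 2 anti-HA chromatin immunoprecipitation sequencing (ChIP-seq) experiments on tagged PRR7 listed an enriched region and where no other list held one. Membership was chosen by measured values, the region calls themselves. A region was a member if it lay on a nuclear chromosome, shared not even 1 bp with a region of either experiment 2 list or of the untagged control list, and had its signal maximum inside the TAIR10 span of a protein-coding gene. Of the 685 regions listed for HA-PRR7 in experiment 1, 660 were nuclear, and 438 of these were members, a share of 66.4% (95% Clopper-Pearson interval 62.6 to 70.0). Among the 574 nuclear regions of experiment 1 that occurred in no other list, the members made up 76.3% (72.6 to 79.7), and the other 136 had their maximum outside protein-coding genes. Of the remaining nuclear regions, 68 overlapped a region in both experiment 2 lists, 11 overlapped one in a single list of experiment 2, and 7 overlapped a region of the untagged line. The intervals given for shares and tags cover counting error only.

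All samples were whole Arabidopsis thaliana seedlings, aged 15 days, grown on Murashige and Skoog plates in cycles of 12 h light and 12 h dark. The plates held 0.8% agar and 2% sucrose, and the light was 70 umol per square metre per second. The tagged group, line #151 alone, was a prr7-3 mutant with the transgene PRR7::HA-PRR7, in which the gene's own promoter drives an HA-tagged PRR7. The control group was prr7-3 without the transgene, so both groups carry the prr7-3 allele. Region lists of 3 IP samples were used: HA-PRR7 in experiment 1, HA-PRR7 in experiment 2 (lists KC and TL, which belong to 1 sample and count as 1 replicate) and untagged prr7-3 in the first experiment. No list of the second prr7-3 IP, from experiment 2, was analysed here. Each line also had an input sample in experiment 1, and experiment 2 had none. Which library gave the control tags is not stated, so those of experiment 1 and experiment 2 may differ in kind as well as depth.

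PRR7 is a pseudo-response regulator of the plant circadian clock. It acts as a transcriptional repressor that reaches the regulatory DNA of clock and output genes, among them the morning genes CCA1 and LHY, and its level peaks during the day. A ChIP-seq region is a stretch where sequenced fragments from the antibody pull-down (IP tags) pile up over those of a control library (control tags). Transcription factors are mostly found near gene starts, and the bodies of genes hold exons and introns.

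The libraries differed in depth. Per 300 bp of background, the deposited tag enrichments correspond to 2.31 IP tags for HA-PRR7 in experiment 1, 3.61 for prr7-3, 10.1 for KC and 10.2 for TL. The control library had 15.4 tags over the same length in HA-PRR7 experiment 1, 22.4 in prr7-3, 0.858 in KC and 0.828 in TL. One control tag of the tagged line in experiment 1 therefore counted as 0.15 IP tags. At the maximum, no region of that list had an IP signal below 10, and the lowest was between 10.01 and 10.02 in the other lists. The lowest IP tag number in a listed region was 6 in HA-PRR7 experiment 1, 11 in prr7-3, 37 in KC and 38 in TL.

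The members were small in every measure of size. They held a median of 10 IP tags (quartiles 8 and 11, range 6 to 43) and a median of 13 control tags (quartiles 10 and 17, range 3 to 67). A count of 10 tags carries an exact Poisson interval of 4.8 to 18.4, which spans most of the members. Their median width was 130 bp (quartiles 118 and 160, range 94 to 495). The fold enrichment, which the authors' caller gave as the ratio of the IP signal to the control signal at the maximum, had a median of 10.2 and ran from 2.74 to 33.5. The tag enrichment, which sets the tags of the whole region against background, had a median of 3.9. The IP signal at the maximum lay between 10 and 33.5 with a median of 11.3, so most members stood close to the lowest signal that the list contains. The number of IP tags was 6 in 11 members, 7 in 38, 8 in 74, 9 in 86, 10 in 76, 11 in 66 and 12 in 39.

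Control tags outnumbered IP tags, before any scaling for depth, in 316 of the 438 members (72.1%, 67.7 to 76.3). For 279 members (63.7%, 59.0 to 68.2) the expected number of IP tags was the uniform background rather than the scaled control, and the control signal at the maximum was below 1 in 219 (50%, 45.2 to 54.8). Where it was below 1, the fold enrichment equalled the IP signal itself. Over the 438 members, IP tags had a Spearman rho of 0.812 with width and 0.0703 with control tags. The fold enrichment, which has the control signal in its denominator, had a rho of -0.536 with control tags. These correlations are across regions of 1 library that share its depth and its control.

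In regions up to 300 bp wide, the deposited q value followed the IP tags. In the 638 nuclear regions of experiment 1 no wider than 300 bp, all regions with the same number of IP tags had the same -log10 q, over 23 different tag numbers. It was 0 at 6 tags, 0.82 at 7, 1.9 at 8, 3.11 at 9, 4.49 at 10 and 6.02 at 11. By this measure 49 members (11.2%, 8.39 to 14.5) had q above 0.05, and the 11 members with 6 tags had q of 1. None of the 68 regions found in both experiment 2 lists had q above 0.05, which allows a share of up to 5.28%. Regions of this width with equal IP tags thus had one q value at any number of control tags. Members over 300 bp wide that shared their IP tag number with narrower ones had a lower -log10 q, such as AT5G64910 (401 bp, 20 IP tags) with 19.04 against AT1G01570 (238 bp, 20 IP tags) with 28.7.

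**Figure D1:**
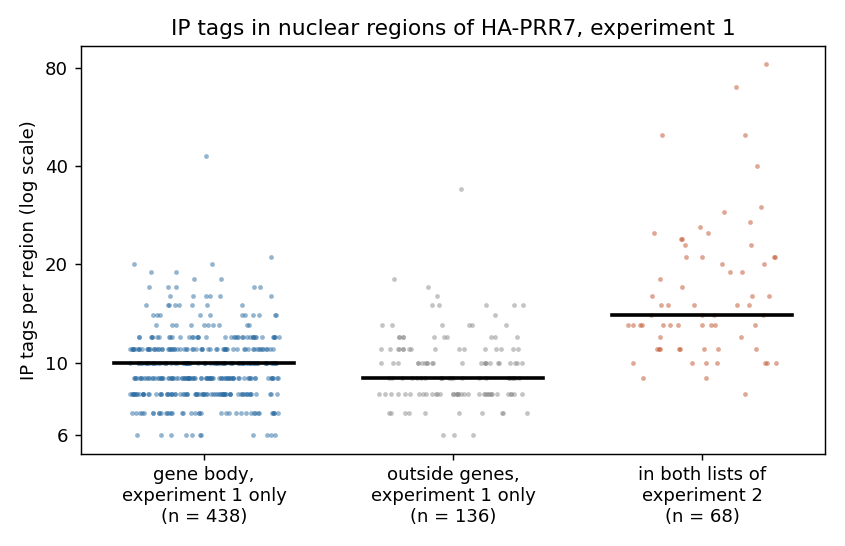
IP tags per region (log scale) in 3 classes of nuclear HA-PRR7 regions of experiment 1; each point is a region, spread sideways at random, and black lines mark medians. The 438 gene-body members and the 136 regions outside genes lie mostly between 6 and 12 tags, with medians of 10 and 9, while the 68 regions found in both experiment 2 lists have a median of 14 and reach 82.

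The members resembled the 136 experiment 1 regions outside genes in size, with medians of 9 IP tags, 13 control tags, 128 bp and 10.1-fold for the latter. The 68 regions found in both experiment 2 lists had medians of 14 IP tags (range 8 to 82), 13.5 control tags, 208 bp and 12.1-fold. Of these 68, 10 (14.7%, 7.28 to 25.4) held 10 or fewer IP tags, against 285 of 438 members (65.1%, 60.4 to 69.5). Control tags outnumbered IP tags in 22 of the 68 (32.4%, 21.5 to 44.8). Because membership depends on which regions were called, these values describe the classes and no test was made. The match between the tag profiles of the 2 strands, a correlation given by the authors' caller, had a median of 0.673 in the members, 0.773 in the regions found in both experiment 2 lists and 0.875 in the prr7-3 regions inside genes. Its range over members was wide, from -0.283 to 1.0.

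The share of members moved with the number of IP tags. Members made up 123 of 176 nuclear experiment 1 regions with 6 to 8 tags (69.9%, 62.5 to 76.6) and 228 of 311 with 9 to 11 tags (73.3%, 68.0 to 78.1). They made up 68 of 118 with 12 to 15 tags (57.6%, 48.2 to 66.7) and 19 of 55 with 16 or more (34.5%, 22.2 to 48.6). Regions found in both experiment 2 lists went the other way, with 1, 17, 22 and 28 regions in the same 4 classes, or 0.568%, 5.47%, 18.6% and 50.9%. By fold enrichment, 6 of the 20 highest regions of the whole experiment 1 list were members (30%, 11.9 to 54.3). Over ranks 1 to 100, ties included, 59 of 102 were members (57.8%, 47.7 to 67.6), and over the 100 lowest 47 were (47.0%, 36.9 to 57.2). These ranks run over all 685 regions, 438 of them members, and include non-nuclear regions, which the rule excludes. The share by fold among the 660 nuclear regions alone was not computed, so no relation of membership to fold is read from these values.

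Untagged prr7-3 lacks the HA tag and was immunoprecipitated with the same antibody, and 108 of its regions lay inside genes. They held a median of 15 IP tags and 23.5 control tags, with a median width of 131 bp and a median of 8.87-fold. Control tags outnumbered IP tags in 95 of them (88.0%, 80.3 to 93.4). The 78 regions inside genes that KC and TL shared and HA-PRR7 experiment 1 lacked had medians of 75 IP tags, 0 control tags and 260 bp. Tag numbers of different lists, and whether control or IP tags are more, are not on one scale, since the depths of IP and control given above differ.

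**Figure D2:**
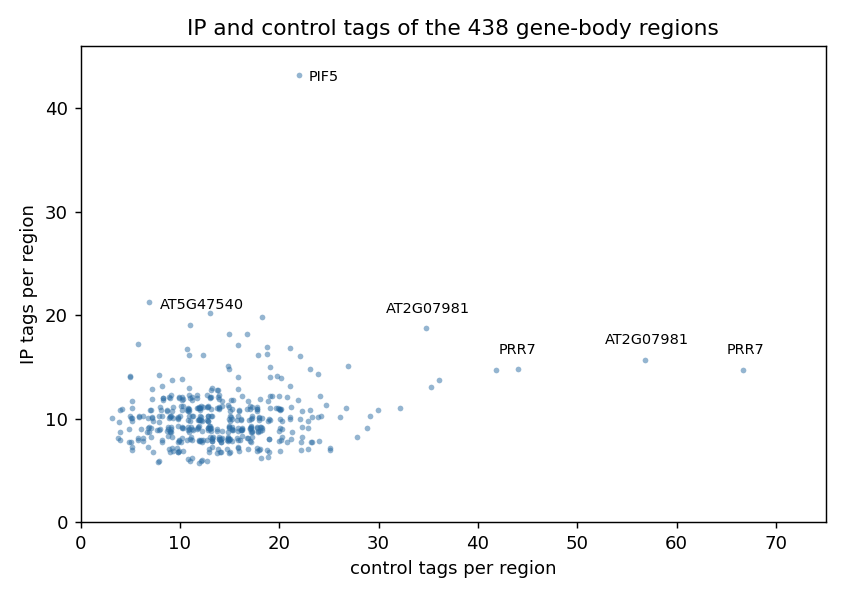
IP tags (vertical) against control tags (horizontal) of the 438 members, each point a region, moved by a small random amount so that equal values can be seen. The regions of PIF5, AT5G47540, PRR7 and AT2G07981 are named. Most members form one cloud around 10 IP tags and 13 control tags, the PIF5 region stands alone at 43 IP tags, and the regions of PRR7 and AT2G07981 hold 35 to 67 control tags.

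From the nearer gene end to the middle, the maxima fell in similar shares. Without strand, place was measured from the nearer gene end as a percentage of gene length and divided into 5 bins of 10%, each of which would hold 20% of maxima under an even spread. From the end to the middle the bins held 81, 85, 98, 81 and 93 members, or 18.5%, 19.4%, 22.4%, 18.5% and 21.2%. The interval of every bin included 20%, and that of the outermost bin ran from 15.0 to 22.5. The median distance from a maximum to the nearer gene end was 580 bp (range 4 to 4987), and the whole region lay inside the gene in 425 members (97.0%, 95.0 to 98.4). Which end is the start, and whether a maximum lies in an exon, an intron or a UTR, was not analysed here.

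The regions seen in experiment 2 lay nearer to gene ends. Of the 78 regions inside genes that KC and TL shared and HA-PRR7 experiment 1 lacked, 46 (59.0%, 47.3 to 70.0) fell in the outermost bin. The median distance of the 78 to the nearer end was 150 bp. Overlap with the prr7-3 list was not used to choose them. Of the 19 regions inside genes that experiment 1 shared with both experiment 2 lists, 9 (47.4%, 24.4 to 71.1) fell there. Of the 108 prr7-3 regions inside genes, 12 (11.1%, 5.87 to 18.6) fell there, with a median distance of 712 bp. The share of the members in that bin was 18.5%. The rule keeps every experiment 1 region that overlaps one of experiment 2 or prr7-3 out of the members, so these shares are not independent of it. Regions of a library are not replicates, so no test between the lists was made.

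**Figure D3:**
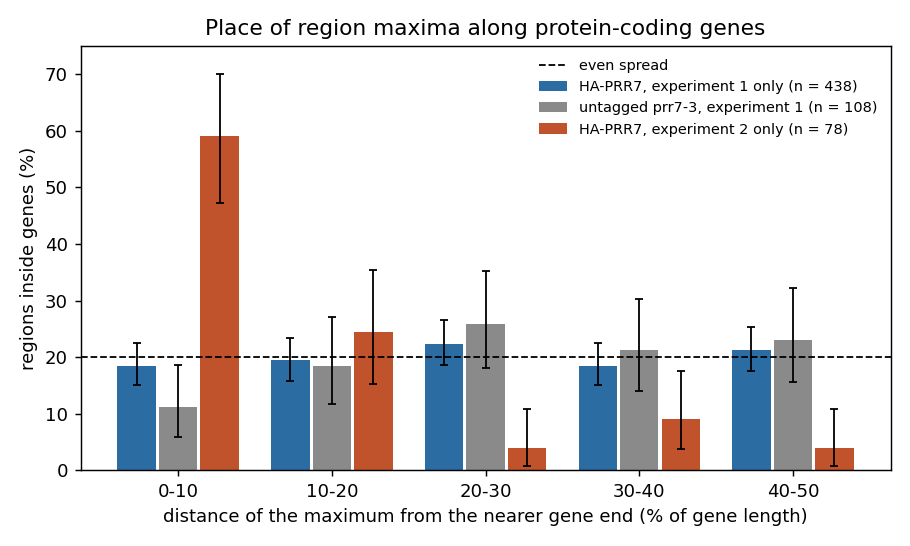
Share of region maxima (vertical, %) in 5 bins of distance from the nearer gene end (horizontal, % of gene length) for the 438 members, 108 prr7-3 regions and 78 regions of experiment 2 alone, with 95% Clopper-Pearson intervals as error bars. The members lie between 18.5% and 22.4% in each bin, near the dashed line of an even spread at 20%, whereas 59.0% of the experiment 2 regions lie in the outermost bin.

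Genes holding a member were longer than genes at large. The 438 genes had a median span of 2670 bp (quartiles 1832 and 3824), against 2078 bp (1323 and 3030) for all 27444 nuclear protein-coding genes. Over 5 classes of gene length with equal numbers of genes, the share of genes holding a member was 0.711%, 1.22%, 1.49%, 1.91% and 2.64% from the shortest to the longest. Counted per length of DNA the order was the reverse, with 8.95, 8.12, 7.0, 6.93 and 5.64 maxima per Mb of gene span. The median number of IP tags was between 9 and 10.5 and the median fold between 10.2 and 10.4 in all 5 classes, so the size of a region did not follow the length of its gene (rho of -0.0164 between IP tags and gene length).

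Protein-coding spans covered 64.5 Mb, 54.1% of the chromosomes up to the last gene, and held 6.79 experiment 1 regions of no other list per Mb. The remaining 54.7 Mb held 2.49 per Mb. The same ordering was present in untagged prr7-3, with 1.67 regions per Mb inside protein-coding spans and 0.494 outside. Chromosomes 1 to 5 held 110, 61, 88, 64 and 115 members, which came to between 6.24 per Mb of gene span on chromosome 2 and 7.65 on chromosome 5. In a gene-poor stretch around a centromere lay 7 members (1.6%, 0.645 to 3.27). The stretch was taken as 1 Mb to each side of the centre of the 2 Mb with the fewest protein-coding genes. Members must lie in such a gene, and the share of all gene span inside these stretches was not computed.

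**Figure D4:**
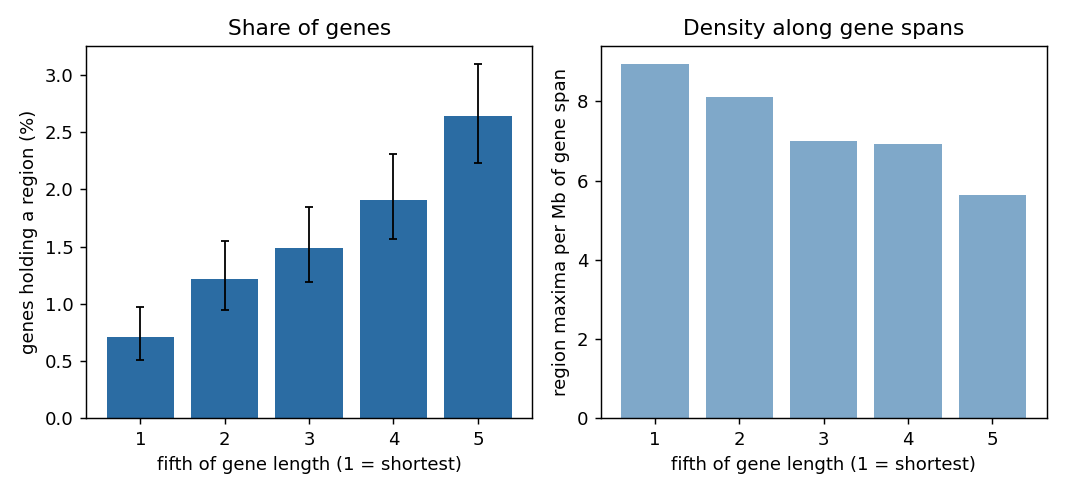
Left, share of genes that hold a member (vertical, %) in 5 classes of gene length of about equal gene number (1 is the shortest), with 95% Clopper-Pearson intervals; right, member maxima per Mb of gene span in the same classes. The share climbs from 0.711% to 2.64% while the density drops from 8.95 to 5.64 per Mb.

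The genes themselves spanned many functions. A maximum of a member lay in 438 of 27444 protein-coding genes (1.60%), 9 of which (0.0328%) held 2, and 9 members had their maximum in more than 1 protein-coding gene. For 15 members the maximum also lay in a gene that is not protein-coding. Among 11 lists with 230 genes of the clock, its outputs and reference functions, 10 genes held a member (4.35%, 2.1 to 7.85). These listed genes are long, with a median span of 2982 bp, and the lists were drawn up with earlier results of these data known. The share of 1.60% over all genes comes from the same calls that chose the members, and no list was tested.

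The core clock list had 3 of 28 genes with a member, PRR7, RVE8 and FKF1. Chromatin regulators had 2 of 22, CLF and DME. Light signalling had 1 of 35 (PIF5), flowering time 1 of 24 (LFY), growth hormones 1 of 26 (PIN7), abscisic acid 1 of 23 (HAI1) and starch 1 of 18 (ISA1). None of 24 genes of photosynthesis and chlorophyll, 11 of cold and dehydration, 8 cellulose synthases or 11 housekeeping genes held one. In the photosynthesis list 14 of the 24 genes had a region of both experiment 2 lists in the span or within 1000 bp, and in the core clock list 10 of 28 had one, against 1.37% of all protein-coding genes. At 1.60% of genes, lists of this size hold less than 1 gene with a member on average, so their zeros say little. The rule also takes out every experiment 1 region that overlaps one of experiment 2. Genes with experiment 2 regions can therefore lose members by the rule itself, and the 2 kinds of count are not independent.

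PIF5, named PIL6 in the gene table, encodes a phytochrome-interacting bHLH factor that promotes elongation growth and is degraded in light. Its region at chr3:21830269-21830763 (TAIR10) was the highest of the whole experiment 1 list by fold enrichment. It held 43 IP tags (Poisson interval 31.1 to 57.9) and 22 control tags, was 33.5-fold enriched and, at 495 bp, was the widest member. Its maximum lay 296 bp from the nearer gene end, 10.1% of the gene length. No other member held more than 21 IP tags, yet the nearest KC region was 357165 bp away and the nearest TL region 497169 bp away. Its strand correlation was 0.30, below the median of the members.

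RVE8, a MYB-like clock activator of evening genes, held a region at chr3:2946258-2946610 with 17 IP tags, 11 control tags and 10.25-fold enrichment. At 353 bp it was among the 5 widest members, and its maximum lay 105 bp from a gene end. FKF1, a blue-light receptor F-box protein of photoperiodic flowering, held one at chr1:25510374-25510490 with 9 IP and 9 control tags, 11.8-fold. The Poisson intervals of 17 tags (9.9 to 27.2) and 9 tags (4.12 to 17.1) overlap.

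PRR7 itself held 2 members, and both stood out by their control tags. The region at chr5:641151-641296 had 15 IP and 67 control tags and was 3.85-fold enriched, and that at chr5:639822-640011 had 15 IP and 44 control tags and was 3.04-fold enriched. They ranked 641 and 664 of 685 by fold. A further experiment 1 region in the gene, at chr5:638513-638665 with 11 IP and 35 control tags, overlapped a KC region and so was no member. That KC region, chr5:638561-639069, held 151 IP tags and no control tag and was 14.0-fold enriched. Untagged prr7-3 also had a PRR7 region, chr5:638755-639040, with 17 IP and 21 control tags and 8.94-fold enrichment. The tagged line carries PRR7 sequence both in its transgene and at its own locus, and tags from these cannot be told apart here.

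Both chromatin members had few tags. CLF, a histone methyltransferase of the Polycomb group, had 9 IP and 5 control tags at chr2:9955533-9955662, 12.8-fold. DME, a DNA glycosylase that removes cytosine methylation, had 11 IP and 11 control tags at chr5:1318294-1318508, 10.2-fold. The DME region had strong neighbours in experiment 2, a KC region 309 bp away with 101 IP tags and 20.7-fold enrichment and a TL region 299 bp away with 99 IP tags and 18.0-fold. The maxima of those neighbours lay 391 and 387 bp outside DME.

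The members in growth and hormone genes were of the same small size. LFY, which specifies floral meristems, had 12 IP and 10 control tags at chr5:24845364-24845504, 12.65-fold, near the middle of the gene. PIN7, an auxin efflux carrier, had 11 IP and 12 control tags at chr1:8183312-8183436, 12.3-fold. HAI1, a protein phosphatase of abscisic acid signalling, had 10 IP and 6 control tags at chr5:23896694-23896873, 9.81-fold, with a KC region 1740 bp away. In ISA1, an isoamylase that trims branches during starch synthesis, 11 IP tags stood against 23 control tags at chr2:16669363-16669520, and the fold was 6.29.

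By fold enrichment, PIF5 was followed by AT5G47540 (chr5:19283043-19283210), where 21 IP tags stood against 7 control tags and the fold was 24.9, and whose maximum lay 97 bp from a gene end. AT1G80360, listed as VAS1 among its synonyms, had 19 IP and 11 control tags and was 18.9-fold enriched. AT3G10810 with 16 IP tags (18.4-fold), AT4G29270 with 14 (18.1-fold) and AT1G01570 with 20 (16.95-fold) made up the 6 members among the 20 highest regions of the list. Of these 6, AT1G01570 alone had an experiment 2 region within 3000 bp, a KC region 527 bp away. The next members were WRKY21, of a family of DNA-binding factors, with 14 IP tags at 16.6-fold and AT5G64910 with 20 at 16.6-fold, then AT1G23180 with 16 at 16.4-fold and LBD20, a LOB-domain factor, with 12 at 16.2-fold. The others of the 20 highest members, among them GH3.9 (11 IP and 4 control tags, 14.6-fold), of the family of acyl-amido synthetases, and scpl40, a serine carboxypeptidase-like protein (11 and 12 tags, 13.8-fold), lay between 13.7- and 15.5-fold. The lowest named of the 20, AT1G43245, had 10 IP tags and 23 control tags. It shared rank 20 at 13.69-fold with SQD2 (12 IP and 10 control tags) and emb1441 (11 and 15). A high fold at the maximum thus did not require more IP than control tags over the region.

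The 9 genes with 2 members showed pairs of alike size. In KNAT6, a KNOX homeobox gene active in shoot meristems, the regions had 12 and 8 IP tags and were 8.97- and 10.8-fold enriched. In PPDK, which encodes pyruvate orthophosphate dikinase, they had 9 and 8 IP tags at 14.5- and 10.95-fold. In LBA1, the helicase UPF1 of nonsense-mediated mRNA decay, they had 10 and 9 IP tags at 11.4- and 11.2-fold. The regions of AT1G16270 had 9 and 9 IP tags, those of AT2G18220 11 and 10, those of AT2G45750 9 and 9, and those of AT5G29070 8 and 7. The pairs in PRR7, described above, and AT2G07981 held the most control tags. The AT2G07981 regions held 19 IP and 35 control tags (3.55-fold) and 16 IP and 57 control tags (2.74-fold), and the latter fold was the lowest of all members.

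The 5 widest members were those of PIF5, ACA.l (410 bp), 5PTASE13 (409 bp), AT5G64910 (401 bp) and RVE8. ACA.l had 16 IP and 22 control tags, and 5PTASE13, an inositol polyphosphate 5-phosphatase, had 17 and 16. Besides the PRR7 and AT2G07981 regions, the most control tags were found in AT2G08986 (42, with 15 IP tags) and SEC10 (36, with 14 IP tags), a subunit of the exocyst. At these high control counts the fold was between 2.74 and 3.85, well under the lower quartile of 7.84.

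Gene families were read from symbols and chosen after the members were seen. Of 27 CHX cation/proton exchangers, 4 held a member (14.8%, 4.19 to 33.7), namely CHX4, CHX9, CHX17 and ATCHX1, each with 8 to 10 IP tags and 6.81- to 11.7-fold enrichment. Of 10 HA plasma membrane proton pumps, HA4 and HA7 held one (20%, 2.52 to 55.6), and of 7 KNAT genes, KNAT4 and KNAT6 (28.6%, 3.67 to 71.0). Among larger families, a member lay in 3 of 229 cytochrome P450 genes (1.31%, 0.271 to 3.78) and 3 of 121 MYB factors (2.48%, 0.514 to 7.07). It also lay in 2 of 67 WRKY factors (2.99%, 0.364 to 10.4) and 4 of 124 ABC transporters (3.23%, 0.886 to 8.05). The share over all genes was 1.60%. Because families were picked with the members in view, none of these intervals can show that a family lies above or at that share. No member lay in 44 ribosomal protein genes, 31 expansins, 30 XTH genes or 22 U-box ligase genes. Their upper limits were 8.04%, 11.2%, 11.6% and 15.4%, all above the 1.60% of all genes, so these zeros say little. The CHX genes have a median span of 3038 bp and the ribosomal protein genes one of 1651 bp.

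Gaps to the other lists were mostly long, and those lists held 372 (KC), 349 (TL) and 135 (prr7-3) nuclear regions. The gaps of random gene positions were not computed, so whether long gaps are particular to the members was not tested. The median gap was 97300 bp to KC, 111521 bp to TL and 279653 bp to prr7-3, and 26 members (5.94%, 3.91 to 8.58) had a region of any of these within 3000 bp. Of the 438 genes with a member, 10 (2.28%, 1.1 to 4.16) had a region of both experiment 2 lists in the span or within 1000 bp, against 1.37% of all protein-coding genes. They were BBX31, F3H, AT4G27435, OZF2, CIPK15, SR1, DME, ZIF1, SIGE and TDT. A prr7-3 region overlapped 5 of the 438 (1.14%, 0.372 to 2.64), SETH1, RSH2, AT4G22410, PRR7 and SPS2F, against 0.412% of all genes. The longer span of the members' genes enters both shares. So does the rule, which took out every experiment 1 region that overlapped one of these lists. No test was made.

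At the borders of the rule, the maxima nearest a gene end lay 4 bp inside AT3G16990 (13 IP tags) and AT5G55570 (11 IP tags) and 14 bp inside AT1G69800 (10 IP tags). Just outside, maxima lay 1 bp from AT5G26090 (8 IP and 18 control tags), 6 bp from UGT73C2 (9 and 2) and 19 bp from PUB18 (11 and 18). The members nearest to another list were in PSY1, a gene for a secreted sulfated peptide, in DME and in BBX31, a B-box protein. The PSY1 member had 12 IP tags and lay 140 bp from a KC region, and the BBX31 member had 9 IP tags and lay 325 bp from one. The smallest overlaps that kept a region out were 45 bp with prr7-3 in AT4G25780 (8 IP tags) and 68 bp with KC in RTFL17 (11 IP tags). Tag numbers on both sides of each border were in the same range.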

How the data were processed

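Anti-HA ChIP-seq lists from 3 of the 6 samples were used. The submitters' processing notes name Bowtie and the build TAIR10. Neither caller nor control library is named in the labels or lists. The authors' deposited lists hold, per region, signal of IP and control, their ratio as fold enrichment, whole-number tag counts, strand scores, and other values such as -log10 p and q. Regions were listed per sample.

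Regions were set against gene spans (TAIR10.1 RefSeq table, nuclear, no strand or sequence) with Python 3.11.15, pandas 2.3.3, numpy 2.4.6 and scipy 1.17.1. Overlap meant 1 bp or more. The deposited tag enrichment was matched in 100% of regions within 1% by IP tags over the larger of scaled control tags and a uniform background in at least 300 bp, which gave the depths. Intervals are exact (95%). The scripts' counting was tested on simulated data. Each experiment had 1 IP library per line and members were chosen by calls, so no test was made. The members and gene lists were chosen with earlier results of these data known. Named genes were listed genes with a member, the 20 highest by fold, genes with 2 members, the 5 widest, the 5 with most IP or control tags, and the 3 nearest each border; symbol families were added later. Families by product description and sequence features were not analysed here.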

Additional observations from a re-analysis of the deposited data

How the results depend on the processing

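Each of 8 results was recomputed under 11 other settings, and 80 of 88 values stayed within 1.5 times (counts) or the 95% interval (medians and shares). Some settings could change little. Leaving out KC, TL or the prr7-3 list in turn gave 439, 438 and 439 members, and KC and TL come from 1 sample. With only the 50% of regions of better q, 229 members remained, with medians of 11 IP tags, 157 bp and 10.58-fold. With only the 50% of higher enrichment, 227 remained, with medians of 11 control tags and 11.34-fold, and 6 listed genes. Both settings drop regions by measures tied to these values. Without HA-PRR7 replicate 2 there were 458 members, 15 listed genes with one and 19.65% of maxima in the outermost bin. The 15 listed genes, against 10 in the main setting, lie at the limit of 1.5 times. Without replicate 1 no member can exist. The sequence windows were not run. No paired analysis was possible because no list of the experiment 2 control IP was used and the result comes from no test. At 10 tags the counting interval is 4.8 to 18.4, and a region missing from a list may hold signal too low to be called. Whether depth sets which regions a list holds was not tested.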
